A study of Rattus norvegicus with 3 samples.

Results

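Immature CD8 thymocytes were the 256 cells of 1 rat thymocyte library that the authors labelled Immature CD8-1 (194 cells) or Immature CD8-2 (62 cells). They were 2.996% of the 8546 annotated cells of that library, which held 21772 annotated cells together with a library of CD45 negative stromal cells. All 256 carry a projected label, and the design text names published mouse data among the references used for annotation. Both libraries and 1 spatial section of 10 µm thickness came from thymi of Lewis rats aged 8 weeks. The labels name no treatment, and thymocytes were prepared by digestion with collagenase D plus DNase I. The number of animals behind each library is not given in the sources used here. Each group was 1 sample, so no difference between labels could be tested, and every interval below is a 95% interval for counting error alone.

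After an early stage with neither coreceptor (double negative, DN), a developing T cell carries both, CD4 and CD8, and is called double positive (DP). A cell whose antigen receptor binds a self-peptide on an MHC molecule is signalled to survive (DP-sig in the labels) and then chooses a lineage. In the CD8 lineage, Runx3 silences Cd4 and supports Cd8 expression, while in the CD4 lineage Zbtb7b, which encodes ThPOK, represses Runx3. Cells then move from the cortex to the medulla, take up Klf2 and S1pr1 expression and leave the thymus.

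Runx3 is one of the 3 marker genes of these cells, and RefSeq lists 2 start sites for it on chromosome 5 of the GRCr8 build, on the plus strand. The 250 bases before each start are shown because Runx3 is the lineage factor that defines these cells and was higher in both immature CD8 labels than in the CD4 labels of the same number, and because RUNX proteins bind the letters ACCACA. Each match to ACCACA, or to TGTGGT for the other strand, is in capitals. The coordinates are those of GRCr8, not of the build behind the counts.

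Runx3 upstream start, chr5:152644020-152644269: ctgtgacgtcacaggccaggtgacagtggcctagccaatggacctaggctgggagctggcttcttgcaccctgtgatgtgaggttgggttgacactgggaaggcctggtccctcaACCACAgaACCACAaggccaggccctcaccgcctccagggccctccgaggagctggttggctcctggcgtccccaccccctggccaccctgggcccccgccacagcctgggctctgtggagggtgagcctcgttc
Runx3 downstream start, chr5:152677396-152677645: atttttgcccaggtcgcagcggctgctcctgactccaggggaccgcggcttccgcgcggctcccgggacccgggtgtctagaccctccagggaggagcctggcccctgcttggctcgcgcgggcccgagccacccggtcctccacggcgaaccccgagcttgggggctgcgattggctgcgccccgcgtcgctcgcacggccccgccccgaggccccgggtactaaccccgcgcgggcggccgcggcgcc

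The upstream window held 2 matches, 127 and 135 bases before the start, and the downstream window held 0. Of 33469 windows of this length, 14.5% held at least 1 match and 1.43% held at least 2. Counts here are per gene and do not tell which start was used.

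CD8-2 cells were the deeper of the 2 labels. CD8-1 cells had a median of 4970 UMIs (2601 to 11444) and 2058 genes, and CD8-2 cells a median of 7981.5 UMIs (1950 to 21682) and 2666.5 genes. A UMI is 1 counted RNA molecule, and levels are given as UMIs summed over the cells of a label, per 1000000 UMIs (CPM). The median share of mitochondrial UMIs was 4.01% in CD8-1 and 3.16% in CD8-2. Of 38 barcodes that occurred in both libraries, 2 belonged to immature CD8 cells.

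The labels were checked against the 3 markers Cd8a and Cd8b, which encode the chains of CD8, and Runx3. At least 1 UMI of the 3 was found in 83.0% of CD8-1 cells and 83.9% of CD8-2 cells, compared with 47.4% of Immature CD4-1 cells and 56.5% of the B and myeloid cells of the same library, whose median depth differed. In CPM the 3 markers summed to 772 in CD8-1 and 900 in CD8-2, compared with 267 in Immature CD4-1 and 397 in Immature CD4-2. The markers are not particular to these labels: they summed to 851 CPM in the label intCD4, 963 in DN, 1649 in Pre DP-sig and 2894 in DP, and 93.8% of gdT cells had at least 1 UMI of them. The labels came from expression, so levels that set them apart describe the cells and are no test of the labels. The authors' first clustering placed 177 of 194 CD8-1 cells in Early SP, 11 in Mature SP and 6 in DP1, and 51 of 62 CD8-2 cells in Mature SP and 11 in Early SP (SP, single positive).

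Markers of other cell types varied. Those of the CD4 lineage (Cd4, Zbtb7b, Cd40lg and Gata3) were found in 83.5% of CD8-1 cells (476 CPM) and 58.1% of CD8-2 cells (179 CPM). In Immature CD4-1 they were found in 85.7% of cells (709 CPM). Those of DP cells, which include Cd4 and Cd8a, were found in 91.8% of CD8-1 and 95.2% of CD8-2 cells. They summed to 907 CPM in CD8-1 and 625 CPM in CD8-2, compared with 6013 CPM in DP. Of 5 gamma-delta T cell markers, only 2, Sox13 and Blk, were measured, and they had 0 UMIs in both labels. They were found in only 21.9% of gdT cells, so their absence says little. The markers of epithelium had 0 UMIs in both labels. Those of B cells had 1 UMI in CD8-1 and 12 in CD8-2, where all 12 were Cd79a in 3 cells. Myeloid markers had 13 UMIs in CD8-1 and 4 in CD8-2. Those of mesenchyme and endothelium had 28 and 16 UMIs (28.5 and 29.6 CPM), all from Pecam1, with the other 4 of the 5 genes at 0. Markers of regulatory T cells had 122 UMIs in CD8-1 (124 CPM, 30.4% of cells) and 233 in CD8-2 (431 CPM, 45.2% of cells), of which 113 and 207 were Ikzf2, while Foxp3, which defines that lineage, had 0 and 1. The part of these cells in the differences between the labels was not tested.

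The 2 labels differed in Cd4, the coreceptor gene that CD8 cells silence. Cd4 stood at 307 CPM (302 UMIs) in CD8-1 and 70.2 CPM (38 UMIs) in CD8-2, a ratio of 0.229 (0.159 to 0.321). For comparison, Cd4 was at 1350.1 CPM in DP, 98.6 in DP-sig and 67.5 in Mature CD8-1. CD8-1 thus lay above the stage listed before it, and CD8-2 lay at the level of Mature CD8-1. Cd8a was nearly level, with 489 CPM in CD8-1 and 534 CPM in CD8-2, a ratio of 1.09 (0.941 to 1.27). Cd8b was at 128 and 168 CPM, a ratio of 1.31 (0.991 to 1.73). The intervals of both CD8 genes included 1. These ratios were not centred on the median gene of the comparison, which lay at a ratio of 0.844. Whether either CD8 gene differed relative to the median gene was not tested.

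Cd8a in CD8-1 was 2.09-fold (1.81 to 2.43) that of DP-sig, where it was at 234 CPM, and Cd4 was 3.12-fold (2.52 to 3.86). Both coreceptor genes were thus lower in DP-sig than in DP and higher again in CD8-1. In the 177 CD8-1 cells of the Early SP cluster alone, Cd4 was at 313 CPM and Cd8a at 497 CPM.

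Single cells showed the same split. A Cd4 UMI was found in 67.5% of CD8-1 cells (131 of 194) and 27.4% of CD8-2 cells, and a Cd8a UMI in 63.4% and 77.4%. Both genes were found together in 41.2% of CD8-1 cells and 12.9% of CD8-2 cells, and Cd8a without Cd4 in 22.2% and 64.5%. Because CD8-2 cells were deeper, each cell was also thinned to 1000 UMIs. Cd4 was then found in 23.2% of CD8-1 and 4.84% of CD8-2 cells, and Cd8a in 33.0% and 38.7%, so the Cd4 shares kept their order. Both genes were then found together in 6.70% of CD8-1 and 1.61% of CD8-2 cells. Cd8a without Cd4 was found in 26.3% (20.2 to 33.1) and 37.1% (25.2 to 50.3), with intervals that overlapped. The B and myeloid cells had a Cd8a UMI in 51 of 170 cells unthinned and in 7.41% of cells thinned, and a Cd4 UMI in 53.5% unthinned and 25.9% thinned. The thinned Cd4 share of CD8-1 was thus not above that of the B and myeloid cells. Thinned alike, it was above those of DP-sig (7.46%) and Mature CD8-1 (3.30%) and below those of Immature CD4-2 (28.2%) and DP (72.7%). The part of background RNA in these shares was not tested. The source of the UMIs in the B and myeloid cells was not tested, so their Cd4 share sets no background level.

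**Figure D1:**
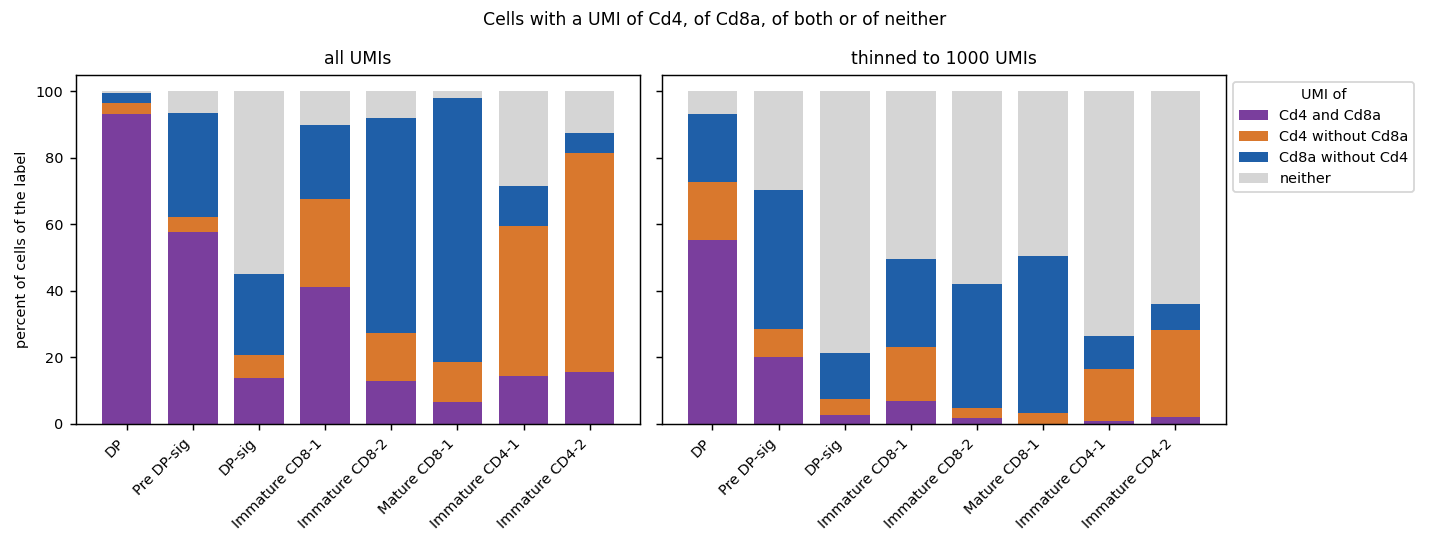
Percent of cells of each label with a UMI of Cd4 and Cd8a, of 1 of them or of neither, with all UMIs (left) and with each cell thinned to 1000 UMIs (right). The segment for Cd8a without Cd4 holds 22.2% of CD8-1 cells and 64.5% of CD8-2 cells with all UMIs, and 26.3% and 37.1% thinned.

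Runx3 was at 155 CPM in CD8-1 and 198 CPM in CD8-2, between 66.7 in DP-sig and 307 in Mature CD8-1. The CD8-2 to CD8-1 ratio was 1.28 (0.990 to 1.65), and its interval included 1 without centring on the median gene. Zbtb7b, which directs cells to the CD4 lineage, had 2 UMIs in each label, 2.03 CPM in CD8-1 and 3.70 CPM in CD8-2, compared with 18.2 and 36.8 CPM in Immature CD4-1 and CD4-2. Gata3, which acts upstream of Zbtb7b, was at 161 CPM in CD8-1 and 68.4 CPM in CD8-2, below 465 in DP-sig.

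Among all genes with at least 30 UMIs over both labels, CD8-2 was at least 2-fold higher than CD8-1 for 196 of 6143 (3.19%) and at least 2-fold lower for 580 (9.44%). The median gene lay at a log2 ratio of -0.24. After division by that median the counts were 368 and 314, so the share of higher genes among those past 2-fold was 25.3% as counted and 53.96% centred. The 1.46-fold summed level of ribosomal protein genes moved with this shift: they summed to 206417 CPM in CD8-1 and 301873 CPM in CD8-2, and 82 of the 83 tested were higher in CD8-2. Without mitochondrial, ribosomal and haemoglobin genes the counts were 302 and 363. The gene differences that follow describe labels assigned from expression.

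Several genes known for exit from the thymus were higher in CD8-2. S1pr1, the receptor that guides mature cells out along a lipid gradient, had 3 UMIs in CD8-1 (3.05 CPM) and 34 in CD8-2 (62.8 CPM), a ratio of 20.6 (6.48 to 105). In CD8-2 it was found in 14 of 62 cells, and 3 cells held 47.1% of its UMIs. Klf2, a factor that drives S1pr1, was 3.04-fold higher (2.15 to 4.33), at 55.9 and 170.0 CPM. Of 16 late maturation genes tested, 7 were at least 2-fold higher and 1, Emb, was at least 2-fold lower, with a median log2 ratio of 0.93. The 7 included S100a4, which had 97.1% of its CD8-2 UMIs in 3 cells. The summed level of that list was close in the 2 labels, at 3417 CPM in CD8-1 and 3879 CPM in CD8-2, a ratio of 1.14. Of 16 chemokine receptor and migration genes tested, 4 were at least 2-fold higher and 1, Ccr9, was lower, but 10 had a ratio below 1 and the median log2 ratio was -0.34. Foxo1, which acts on Klf2 and Il7r, was 3.25-fold higher. Il7r, the receptor of the survival cytokine interleukin 7, was at 96.6 and 183 CPM, a ratio of 1.89 (1.41 to 2.54) and short of 2-fold.

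Genes of MHC class I presentation formed a second group on that side. Of 15 tested, 7 were at least 2-fold higher in CD8-2 and 0 were at least 2-fold lower, with a median log2 ratio of 1.00. Their summed level was 1899 CPM in CD8-1 and 5050.0 CPM in CD8-2. B2m, the light chain of all class I molecules, was 3.15-fold higher (2.92 to 3.41), and Psmb9, an immunoproteasome subunit, was 4.07-fold higher (2.94 to 5.69). RT1-A1, a class I heavy chain, was at 11.2 and 135 CPM, a ratio of 12.1 (6.36 to 25.2), and RT1-CE16 at 28.5 and 233 CPM, a ratio of 8.18 (5.40 to 12.8). Class I heavy chain genes of the rat are close copies, and how the counting divided reads among them is not given in the sources used here. Among interferon response genes only 4 of 20 could be tested, and 3 of them, Irf1, Irf9 and Ifi27, were at least 2-fold higher. Of these, Ifi27 had 93.5% of its CD8-2 UMIs in 3 cells.

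Other genes among the 12 highest ratios were Ccnd2, a cyclin of the first gap phase, with 30 UMIs in CD8-2 and 0 in CD8-1 (at least 18.2-fold higher with the 0 set at 3 UMIs, lower limit 13.9), Slc4a4, a bicarbonate transporter, at 9.15 and 99.8 CPM (10.9-fold), and Tnfrsf1b, a receptor of tumour necrosis factor, at 6.10 and 57.3 CPM (9.39-fold). Ccnd2 was found in 13 CD8-2 cells, and 3 cells held 50% of its UMIs. Scml4, a polycomb group relative, was at 13.2 and 111 CPM (8.39-fold). Further ones were Ms4a6c, Ms4a6bl1, Chchd10 and Pvt1, with ratios of 7.88 to 8.26. Ctsw, a protease of cytotoxic cells, was at 36.6 and 255 CPM, a ratio of 6.97 (4.80 to 10.4), but only 3 of the 19 measured cytotoxic genes could be tested.

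Several lineage factors lay on the other side. Of 16 coreceptor and lineage genes tested, 7 were at least 2-fold lower in CD8-2 (Cd4, Gata3, Tox, Satb1, Bcl11b, Tcf7 and Myb) and 1, Patz1, was at least 2-fold higher. Tox, a nuclear factor induced by selection, was at 2695 CPM in CD8-1 and 684 CPM in CD8-2, a ratio of 0.254 (0.227 to 0.283). Satb1, a chromatin organiser of DP and early SP cells, was at 5487 and 2541 CPM, a ratio of 0.463 (0.436 to 0.491). Tcf7, which encodes TCF-1, was at 1061 and 368 CPM, a ratio of 0.346 (0.296 to 0.404).

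The lowest CD8-2 to CD8-1 ratio among the genes named was that of Tox2, a relative of Tox, at 198 CPM in CD8-1 and 14.8 CPM in CD8-2, a ratio of 0.0746 (0.0317 to 0.150). Cacnb2, a calcium channel subunit, was at 336 and 40.7 CPM (0.121, 0.0749 to 0.187). Dntt, which adds bases at receptor gene joints in DP cells, was at 85.4 and 11.1 CPM (0.130, 0.0463 to 0.295). In Mature CD8-1 these 3 genes were also below the CD8-1 level, at 2.11, 55.9 and 6.33 CPM. The others were Man2a2, Adam12, Zfp444, Cep128, Ssx2ip, Thy1, Stx3, Samhd1 and Msh6, with ratios of 0.125 to 0.191. Ccr9, a chemokine receptor of cortical and early SP cells, was at 598 and 164 CPM, a ratio of 0.275 (0.218 to 0.344).

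**Figure D2:**
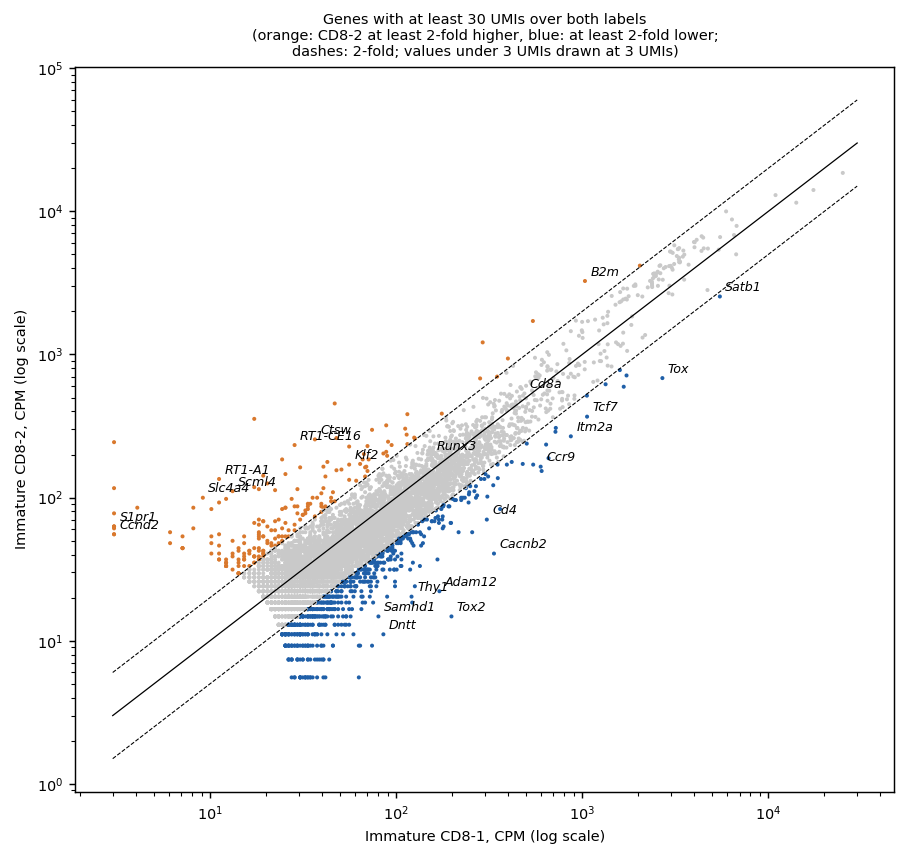
Level of each gene with at least 30 UMIs over both labels in CD8-1 (horizontal) and CD8-2 (vertical), in CPM on log scales, with values under 3 UMIs drawn at 3 UMIs. Orange marks 196 genes at least 2-fold higher in CD8-2 and blue 580 genes at least 2-fold lower. B2m and Ctsw lie above the upper dashed line, and Tox, Tox2, Ccr9 and Cd4 below the lower one.

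Some selection signal genes that were higher in CD8-2 had a large share of their UMIs in few cells. Of 18 tested, 5 were at least 2-fold higher (Ikzf2, Nfkbia, Nfkb1, Rel and Tnfrsf9) and 4 at least 2-fold lower (Nr4a1, Itm2a, Id2 and Tox2). Tnfrsf9, an activation receptor also known as 4-1BB, had 46 UMIs in 5 CD8-2 cells, and 3 cells held 95.7% of them. Ikzf2, which encodes Helios, had 51.2% of its 207 UMIs in 3 cells. Nfkbia, an inhibitor of NF-kappa-B, had 44.3% of 79 in 3 cells and was found in 25 cells. Nfkb1 and Rel were not examined for this. Outside that list, S100a4 had 97.1% of its 34 UMIs in 3 cells and Ifi27 had 93.5% of 46. The 3 highest cells of these 5 genes and of Bcl2a1 were 11 different cells, and 1 Mature SP cell was among the 3 highest for at least 3 of the genes.

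Within CD8-2, the 11 cells of the Early SP cluster and the 51 of Mature SP differed. In the 11 cells Cd8a was at 1001 CPM (771 to 1278) and found in every cell, while in the 51 it was at 471 CPM (412 to 537). S1pr1 had 0 UMIs in the 11 cells, for which 3 UMIs would be 46.9 CPM, and was at 71.2 CPM in the 51. B2m was at 1314 and 3520.1 CPM, and Ccr9 at 422 and 130 CPM. Cd4 had 2 UMIs in the 11 cells (31.3 CPM, 3.79 to 113) and stood at 75.4 CPM in the 51, so both sets had a low Cd4 level. The 11 cells thus lacked detected S1pr1 with a high Cd8a level, and all S1pr1 UMIs of the label lay in its Mature SP cells. These sets rest on the first clustering, which used expression, and the smaller one holds few cells.

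In CD8-1, the 11 Mature SP cells had Runx3 at 399 CPM (267 to 573), compared with 136 CPM in the 177 Early SP cells. Cd8a was at 317 CPM (201 to 475) and 497 CPM.

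**Figure D3:**
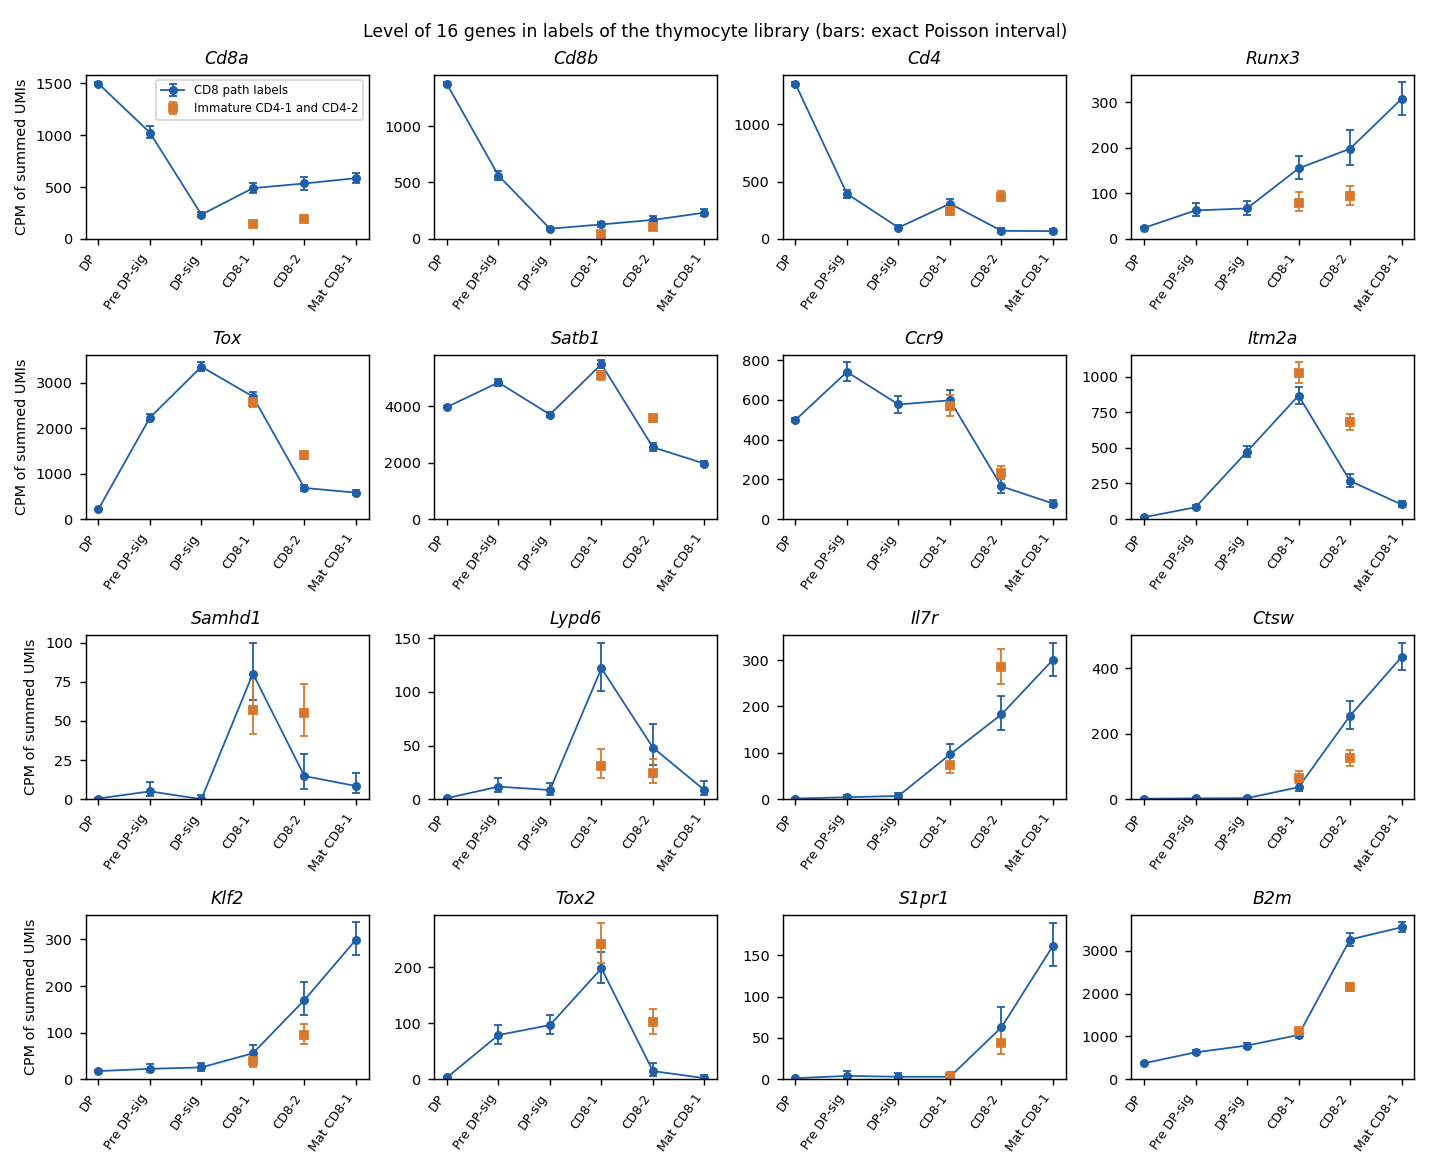
Level of 16 genes in CPM, with exact Poisson intervals, in 6 labels ordered from DP to Mature CD8-1 (blue circles), and in Immature CD4-1 and CD4-2 at the places of CD8-1 and CD8-2 (orange squares). Samhd1 and Lypd6 are highest in CD8-1 among these labels, at 80.3 and 122 CPM, while S1pr1 and Klf2 are higher in CD8-2 than in CD8-1 and higher again in Mature CD8-1.

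Compared with DP-sig, the immature CD8 cells as a whole were at least 2-fold higher for 272 of 7798 genes (3.49%) and at least 2-fold lower for 473 (6.07%). The median log2 ratio was -0.12, and centring on it moved the share of higher genes from 36.5% to 48.0%. Ctsw was at 114 CPM and 3.10 CPM in DP-sig, a ratio of 36.8 (14.1 to 136). Samhd1, which degrades nucleotides, had 87 UMIs and 0 in DP-sig (at least 24.5-fold higher with the 0 set at 3 UMIs, lower limit 19.5). Il7r was at 127 and 6.99 CPM, a ratio of 18.2 (9.40 to 40.4). Neurl3, Znrf3, Stat4 and Gsto1 had ratios of 5.26 to 8.45.

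Several genes of receptor signalling were lower than in DP-sig. Of 17 receptor complex and signalling genes, 5 were at least 2-fold lower (Cd5, Cd6, Cd2, Cd28 and Thy1) and 0 were at least 2-fold higher. Cd5, a brake on receptor signals whose level tracks their strength, was at 96.4 and 363 CPM, a ratio of 0.265 (0.219 to 0.320). The 20 selection signal genes were mixed: 11 had a ratio above 1 and 9 below, and the median log2 ratio was 0.10. Of them, 5 were at least 2-fold lower, among them Cd69 (0.414), which holds cells in the thymus, and Nr4a1 (0.319), an immediate target of receptor signals. Another 4 were at least 2-fold higher (Id2, Cd40lg, Gimap4 and Tnfrsf9). Cd40lg had 6 UMIs in CD8-1 and 20 in CD8-2, where 3 cells held 70% of them. Tnfrsf9 had 4 UMIs in CD8-1 and 46 in CD8-2, where 3 cells held 95.7%. Myb, a factor of DP cells, was at 104 and 1458 CPM, a ratio of 0.0715 (0.0605 to 0.0841). Cd200, Gpc5, Hspa4l, Srgn, Chn2 and Hivep3 had ratios of 0.0424 to 0.0882, and Tril had 1 UMI against 94.

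CD8-1 alone, compared with DP-sig, was at least 2-fold higher for 192 of 7320 genes (2.62%) and at least 2-fold lower for 407 (5.56%). The median log2 ratio was -0.06, and after centring on it the counts were 221 and 358. Samhd1 had 79 UMIs against 0, at least 34.5-fold higher with the 0 set at 3 UMIs (lower limit 27.4). Bcl11b, a factor that fixes T cell identity, was 1.95-fold higher (1.81 to 2.10), and Satb1 1.48-fold higher (1.43 to 1.54), while both were lower in CD8-2 than in DP-sig, with Bcl11b at 713 and 886 CPM and Satb1 at 2541 and 3702 CPM.

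Set against immature CD4 cells (236 cells labelled Immature CD4-1 or CD4-2), few genes differed by 2-fold: 91 of 7965 (1.14%) were higher in immature CD8 cells and 148 (1.86%) lower. Cd8a was at 505 and 172 CPM, a ratio of 2.93 (2.55 to 3.37), Runx3 at 170 and 86.5 CPM, a ratio of 1.96 (1.59 to 2.43), and Cd8b at 142 and 75.2 CPM, a ratio of 1.89 (1.51 to 2.39). Gata3 was at 128 and 286 CPM, a ratio of 0.447 (0.376 to 0.530), and Zbtb7b had 4 UMIs against 44. Cd4 itself had a ratio of 0.725 (0.629 to 0.834). Cd40lg, the helper ligand of CD4 cells, had a ratio of 0.151 (0.0959 to 0.228). Of 20 selection signal genes, 4 were at least 2-fold lower (Nr4a1, Egr1, Id3 and Cd40lg), 1 was at least 2-fold higher (Tnfrsf9, largely from 3 cells), and the median log2 ratio was -0.50.

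The gene with the highest ratio there was Lypd6, a membrane-anchored protein that acts on Wnt signalling, at 95.7 CPM and 27.8 CPM, a ratio of 3.45 (2.44 to 4.94). It also led the genes of immature CD8 cells over each of 15 other labels with at least 50 cells, 3.06-fold (1.98 to 4.93) above the next, Immature CD4-1. It was at 122 CPM in CD8-1 and 48.0 in CD8-2, compared with 8.54 in DP-sig and 8.44 in Mature CD8-1. In CD8-1 it had 120 UMIs in 48 of 194 cells, with up to 16 in 1 cell. The next in that ranking, Apeh, Lime1, Ldb1, Nup93, Tmsb15b2, Pcif1 and Cdc23, were 1.15 to 1.35 times the next label, each with an interval that included 1.

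The other genes lower than in immature CD4 cells were led by Resp18, a protein of secretory granules, at 33.5 and 335 CPM, a ratio of 0.0999 (0.0734 to 0.133). Ndrg1 and Hivep3 had ratios of 0.127 and 0.146. Slc4a4, Mmp9, Gpr183 and Cdc14a had ratios of 0.210 to 0.317. On the higher side stood Apeh, Nup93, Gsto1, Trps1 and Wbp1 with ratios of 1.94 to 2.25.

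The pooled comparison mixes stages in unequal numbers, so labels of like number were also set side by side. In CD8-1 against Immature CD4-1, 116 of 6592 genes were at least 2-fold higher (1.76%) and 105 lower (1.59%). Cd8a had a ratio of 3.32 (2.70 to 4.11), Cd8b of 3.17 (2.13 to 4.86), Runx3 of 1.94 (1.43 to 2.66), and Cd4 of 1.27 (1.05 to 1.53). Cd4 was therefore not lower in the first CD8 label than in the first CD4 label. Of 13 late maturation genes tested, 0 were past 2-fold in either direction, and the median was 0.04. Cd40lg (0.0731), Egr1 (0.356), Cd5 (0.441) and Gata3 (0.440) were on the lower side.

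CD8-2 against Immature CD4-2 showed 114 of 5769 genes at least 2-fold higher (1.98%) and 335 lower (5.81%). The median log2 ratio was -0.15, and after centring on it the counts were 184 and 228. Here Cd4 had a ratio of 0.190 (0.132 to 0.267), at 70.2 and 369 CPM, and Cd8a of 2.72 (2.24 to 3.32). Runx3 had a ratio of 2.12 (1.57 to 2.89). Of 19 selection signal genes, 9 were at least 2-fold lower, among them Nr4a1 (0.298), Egr1 and Itm2a, and 2 were higher (Ikzf2 and Tnfrsf9). Ctsw was 2.04-fold (1.57 to 2.66) that of Immature CD4-2, and Klrk1, which encodes the activating receptor NKG2D, 3.27-fold (1.59 to 7.11). Il7r was lower, at 183 and 284 CPM, a ratio of 0.643 (0.503 to 0.817).

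Compared with mature CD8 cells (118 cells labelled Mature CD8-1 or CD8-2), immature CD8 cells were at least 2-fold higher for 450 of 7715 genes (5.83%) and lower for 245 (3.18%). The median log2 ratio was 0.20, and centring moved the share of higher genes from 64.7% to 39.8%. Lypd6 had a ratio of 16.3 (8.06 to 38.5), Tox2 of 8.63 (5.50 to 14.2) and Ccr9 of 7.03 (5.61 to 8.90). Marcks, Dntt, Cacnb2, Daam1 and Emb followed with ratios of 4.09 to 6.46. On the lower side, Slc4a4 had a ratio of 0.121 and Ms4a4c of 0.0901, and Sv2b, Calhm6, Phf11, Tnfrsf14, Usp44 and Tagln2 had ratios of 0.0680 to 0.157. Of 18 class I presentation genes, 8 were at least 2-fold lower than in mature cells and 0 higher. The label Mature CD8-2 (27 cells) had Cd4 at 188 CPM and Cd8b at 29.0 CPM, the reverse of its name, so the values against Mature CD8-1 alone are given next.

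CD8-2 against Mature CD8-1 was at least 2-fold higher for 178 of 5664 genes (3.14%) and lower for 139 (2.45%). The median log2 ratio was 0.11. After centring on it the counts were 123 and 179, so the side with more genes changed. Without centring, the intervals of Cd4 (1.04, 0.677 to 1.58) and Cd8a (0.912, 0.789 to 1.05) included 1, and B2m was at 0.920 (0.868 to 0.975). Some genes known for exit were below the level of mature cells: S1pr1 had a ratio of 0.389 (0.260 to 0.568) and Klf2 of 0.567 (0.444 to 0.720). Runx3 had a ratio of 0.644 (0.511 to 0.807). Itm2a had a ratio of 2.62 (2.01 to 3.42), Nr4a1 of 2.19 (1.29 to 3.74) and Ccr9 of 2.11 (1.53 to 2.91). Of 16 coreceptor and lineage genes tested, 0 were at least 2-fold higher and 1, Myb, was at least 2-fold lower. The highest ratios were those of Dctpp1, Lypd6, Bcl2a1, Ptpmt1, Nfkbia, Fabp5, Npm3 and Odc1, at 3.75 to 6.01, of which Bcl2a1 and Nfkbia had 63.9% and 44.3% of their UMIs in 3 cells.

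The section placed the 2 labels at different depths. Its bins of 10 µm width each carry up to 3 labels from RCTD, a method that splits a bin's RNA among reference cell types, and the first label was counted. A bin can hold parts of several cells. Of 592087 bins with a label, 8994 (1.52%) had CD8-1 first and 5105 (0.862%) had CD8-2 first. CD8-1 held 1.50% of cortical and 2.48% of medullary bins, a ratio of 1.65 (1.56 to 1.74), and CD8-2 held 0.567% and 4.09%, a ratio of 7.205 (6.81 to 7.62). The cortical bins leave out the authors' capsular region, where CD8-1 held 1.11% and CD8-2 0.283% of labelled bins. DP-sig had a ratio of 0.844 and Mature CD8-1 of 11.6, so both immature labels lay between these. Immature CD4-1 and CD4-2 had ratios of 2.15 and 6.58.

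By distance from the border of the medulla, CD8-1 was most frequent next to it, with 2.78% of bins in the 50 µm outside and 2.78% in the 50 µm inside, and less frequent deeper in, with 2.22% over 100 µm inside. CD8-2 was more frequent the deeper the band, from 1.88% in the 50 µm outside to 3.63% in the 50 µm inside and 5.05% over 100 µm inside. The median position was 158 µm outside the medulla for CD8-1 (-158) and 10 µm outside for CD8-2 (-10.0), and 16.4% and 47.7% of each label's bins were medullary. Depth of counts moved with position, from a median of 298 UMIs per bin at 100 to 200 µm outside to 518 at 50 to 100 µm inside, and its part in the labels was not tested. In bins at or above the median depth the medians were -28.3 µm and 22.4 µm, with CD8-2 still the deeper label. The median of CD8-2 was 10.0 µm inside the medulla with confident labels, with a label in any place and left of the median x, so its side of the border was not settled. Its share of medullary bins was 1.76% with confident labels (CD8-1: 1.36%), against 4.09% and 2.48% with all first labels. Of the first labels, 12.9% for CD8-1 and 10.5% for CD8-2 were called confident by the authors.

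**Figure D4:**
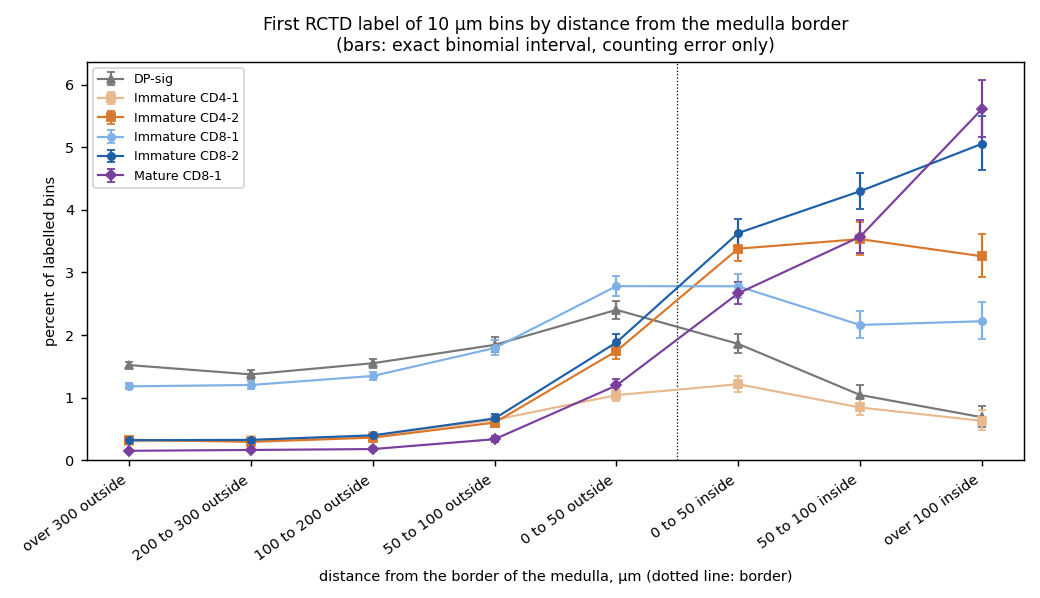
Percent of labelled bins with each first label in 8 bands of distance from the border of the medulla, with exact binomial intervals for counting error. CD8-1 is highest in the bands on either side of the border, at 2.78%, and CD8-2 in the innermost band, at 5.05%.

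Within the medulla the authors distinguish the regions mECA and mEFA, and the series' title concerns epithelium-free areas. The share of bins in mEFA relative to mECA was 1.28 (1.16 to 1.42) for CD8-1 and 1.21 (1.12 to 1.31) for CD8-2. Over bins with a thymocyte first label only, the ratios were 1.07 (0.966 to 1.19) and 1.01 (0.933 to 1.10), with intervals that included 1. They were below 1, at 0.937 and 0.963, when a label in any of the 3 places was counted, so no direction between the regions is given. As percent of all bins of the label, the most frequent second labels of CD8-2 bins were the mTEC2 class of medullary epithelium (19.6%) and the class named mTEC-prol (19.2%). For CD8-1 bins they were mTEC-prol (9.97%) and the class named cTEC (9.65%). No second label was given in 58.3% of CD8-1 and 32.7% of CD8-2 bins.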

How the data were processed

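UMI counts per gene and barcode were deposited by the authors. Per the file headers, Cell Ranger 8.0.0 produced them. The submitters' processing notes name Seurat 5.3.0 and the build mRatBN7.2, and the annotation is not given in the sources used here. Labels, the first clusters and the percent of mitochondrial UMIs per cell are the authors' deposited values. Of the embedding coordinates, a deposited score, nothing is printed. For the section, UMI counts per bin and RCTD weights, a fraction per label, were deposited by the authors.

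UMIs were summed over the cells of a label and divided by the label's total (CPM). Cells were not filtered further and no doublet caller was run, and whether doublets were removed earlier is not given in the sources used here. Ratios have exact binomial intervals, levels exact Poisson intervals and shares exact Clopper-Pearson intervals, at 95%. Ratios needed at least 30 UMIs over both sides, and a side under 3 UMIs was set to 3. Genes were named by rank, 12 each way for CD8-2 against CD8-1 and 8 for other comparisons, with a UMI in at least 20% of cells of the higher side, along with 18 gene lists of which 542 of 546 list and marker genes were in the table. Identifiers without a symbol were left out, and 1 gene that the rule names is not reported here. Members and lists were chosen with earlier results of these data known. Comparisons of single label pairs beyond CD8-2 against CD8-1 were added after seeing the data. Tested on simulated counts for CD8-2 against CD8-1, 100 of 100 raised and 86 of 86 lowered genes at 4-fold passed 2-fold, as did 90 of 5940 unchanged genes. The simulated counts held counting error alone, with no variation between cells of a label. These rates therefore do not carry over to genes whose UMIs lie in few cells. Distances were measured between bin centres. Sequences are RefSeq windows of GRCr8. Python 3.11.15, NumPy 2.4.6, SciPy 1.17.1 and pandas 2.3.3 were used.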

Additional observations from a re-analysis of the deposited data

How the results depend on the processing

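No paired analysis was possible because the thymocyte library was a single sample. Gene counts are given as higher then lower for CD8-2 against CD8-1, and for all immature CD8 cells against DP-sig, immature CD4 and mature CD8. Thinning each cell to 1000 UMIs gave 32 and 205, 88 and 250, 45 and 57, and 259 and 59. No filter on low counts gave 726 and 1008, 666 and 950, 477 and 475, and 1022 and 657. A minimum of 100 UMIs gave 50 and 154, 80 and 229, 9 and 40, and 138 and 96. A 3-fold rule gave 82 and 146, 110 and 157, 22 and 39, and 79 and 100. Without mitochondrial, ribosomal and haemoglobin genes the first comparison gave 302 and 363, and 260 genes were higher against mature CD8. Centring gave 368 and 314, and 229. Thinned ratios crossed 1 for Zfp444 (1.04), Cep128 (1.04) and Stx3 (1.17) in CD8-2 against CD8-1 and for Apeh (0.738) against immature CD4, where few UMIs remain. With at most 5% mitochondrial UMIs the library shares were 2.72% for CD8-1, 1.03% for CD8-2 and 3.75% together. Thinned shares of cells with a UMI were 23.2% and 4.84% for Cd4 in CD8-1 and CD8-2, 33.0% and 38.7% for Cd8a, 11.9% and 16.1% for Cd8b, and 14.9% and 11.3% for Runx3, whose order was the other way with all UMIs (38.1% and 59.7%). In the section, medullary shares of CD8-1 and CD8-2 were 3.56% and 5.17% with a label in any place, 1.36% and 1.76% with confident labels, 3.04% and 4.40% in segmented cell bins, and 3.04% and 5.01% over thymocyte labels, with 2.68% for CD8-1 by summed weights. Ratios of mEFA to mECA were 0.937 and 0.963 with a label in any place, 1.52 and 1.61 with confident labels, 1.05 and 1.06 by weights, and 1.07 and 1.01 over thymocyte labels, with 1.09 for CD8-1 in cell bins. The median of CD8-2 was 10.0 µm inside the medulla with a label in any place, with confident labels and left of the median x, and 22.4 µm in deeper bins, where CD8-1 was at -28.3 µm. The causes were not tested. Leaving out barcodes found in both libraries, or cells whose first cluster did not match the stage of the label, moved no gene count by over 1.5 times. Labels from the first clustering alone were not run, since it names no immature CD8 label. The 62 cells of CD8-2 and its 541188 UMIs set the depth limit: 3 UMIs there correspond to 5.54 CPM.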
